A study of Mus musculus with 8 samples.

Results

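Nuclear receptors are transcription factors that most often act when a small lipid-soluble molecule, such as a steroid, a retinoid, thyroid hormone or vitamin D, binds them. A zinc-finger domain holds DNA and a separate domain holds the ligand. Steroid receptors mostly act as homodimers on inverted repeats, whereas retinoid, thyroid, vitamin D, bile acid and fatty acid receptors mostly pair with a retinoid X receptor (RXR) on direct repeats. Other members are called orphans because no natural ligand is settled for them. The 44 mouse nuclear receptor genes described here were taken from a fixed list of gene symbols that holds Esr1. All 44 had a row in the deposited table, among 77981 genes counted by symbol.

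The libraries hold RNA of mouse kidney, labelled IMCD for inner medullary collecting duct, a segment in which vasopressin sets how much water is recovered from urine. There were 4 libraries of genotype AVP-flox, in which loxP sites lie in the first intron and downstream of the vasopressin gene, and 4 of genotype AVP-flox;Cre, which adds a Cre recombinase. Both groups carry the floxed allele and both were given tamoxifen, an estrogen receptor ligand that also switches on inducible forms of Cre. No group carries Cre without the floxed allele, and the labels name neither the Cre line, its driver, nor the strain, age or sex of the mice. By Xist and Y-linked genes, 1 of 4 AVP-flox libraries and 2 of 4 AVP-flox;Cre libraries had a male pattern, and with that pattern as a covariate the same 6 receptor genes passed the test used here. Separate animals are not stated for the replicates either, so the p-values may cover only technical spread between samples.

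Values are TPM, levels divided by transcript length and by the library total, so that levels of different genes can be set side by side. The table keeps no read counts, so depth is unknown. Differences were tested with limma on log2(TPM + 1) over every gene whose mean reached 1 TPM, with Benjamini-Hochberg adjustment over all of them and a threshold of 0.05. Of 19043 genes tested, 27.3% passed, 13.1% higher and 14.2% lower in AVP-flox;Cre. With the filter raised to a mean of 5 TPM, 39.4% of 11955 genes passed. The share called thus varies with the level of the genes, and the 27.3% set beside lists below is not matched for level. The 16 collecting duct markers (principal and IMCD cells) were all detected in every library and summed to 22007 to 25802 TPM in AVP-flox and 14207 to 16338 TPM in AVP-flox;Cre. Aqp2, the vasopressin-regulated water channel gene, made up most of the AVP-flox sum, and the 15 markers without it summed to 6836 to 8098 TPM in AVP-flox and 8763 to 9709 TPM in AVP-flox;Cre. Of the 16, 6 rose and 4 fell (62.5% called against 27.3% of all tested genes). Markers of other cells were present as well. Those of the proximal tubule summed to 70.6 to 891 TPM in AVP-flox and 140 to 346 TPM in AVP-flox;Cre, those of the thick ascending limb and distal tubule to 3240, 1101, 2994 and 3060 TPM in AVP-flox 1 to 4, with AVP-flox;Cre ranging from 1721 to 2020 TPM, those of interstitial fibroblasts and pericytes to 202 to 288 and 384 to 490 TPM, and those of the papillary surface and urothelium to 2029 to 3063 and 5375 to 6123 TPM. In such bulk samples fewer cells of a type and less RNA per cell cannot be told apart.

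Esr1, the gene of estrogen receptor alpha, was the member that differed most. It stood at 0.91, 1.29, 2.23 and 1.25 TPM in AVP-flox 1 to 4 and at 54.2, 202, 172 and 109 TPM in AVP-flox;Cre 1 to 4. Every AVP-flox;Cre library was far above every AVP-flox library, and the AVP-flox;Cre libraries differed among themselves, with replicate 1 the lowest. Among the 44 genes Esr1 ranked 28 to 31 by level in the AVP-flox libraries and 1 to 5 in the AVP-flox;Cre libraries. Its mean rose from 1.42 ± 0.57 to 134 ± 66 TPM (SD, n = 4 per group), a 94.6-fold ratio, with a log2 fold change of 5.67 (SE 0.36, limma adjusted p = 1.57e-05). An exact two-sided permutation test on mean TPM gave p = 0.0286, which is the lowest value this design can give. The values are gene totals, and message of the mouse gene and message of a transgene that holds Esr1 sequence cannot be told apart in them. RefSeq lists 2 starts of Esr1, whose windows from 250 bases before to 50 bases after the start are shown because the totals also do not tell which start was used. The first lies at chr10:4611739-4612038 and the second at chr10:4709908-4710207 (GRCm38.p6, plus strand), and neither holds the hexamer AGGTCA or the estrogen response element, GGTCA and TGACC spaced by 3 bases, on either strand, so no letter is in capitals. Of all 32851 windows in the RefSeq table, 16.3% hold AGGTCA and 0.07% hold the full element.
Esr1 first start: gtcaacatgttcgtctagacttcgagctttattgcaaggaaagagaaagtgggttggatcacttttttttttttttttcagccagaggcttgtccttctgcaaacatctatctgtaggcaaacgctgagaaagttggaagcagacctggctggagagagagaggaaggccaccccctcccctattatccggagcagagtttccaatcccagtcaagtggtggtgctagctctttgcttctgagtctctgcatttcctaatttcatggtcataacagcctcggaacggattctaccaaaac
Esr1 second start: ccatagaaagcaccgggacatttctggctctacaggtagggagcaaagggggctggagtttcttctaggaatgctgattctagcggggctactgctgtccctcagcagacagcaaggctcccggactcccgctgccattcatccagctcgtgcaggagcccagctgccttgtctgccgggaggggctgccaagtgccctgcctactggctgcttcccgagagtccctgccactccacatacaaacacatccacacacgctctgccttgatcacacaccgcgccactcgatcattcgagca

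The other sex steroid receptor genes stayed low. Esr2, which encodes estrogen receptor beta, stood at 1.26, 0.03, 1.13 and 0.97 TPM in AVP-flox 1 to 4 and at 0.50, 0, 0.18 and 0.73 TPM in AVP-flox;Cre 1 to 4. Its groups overlap, and its mean was under the filter of 1 TPM. Esr1 thus made up 41.9% to 97.7% of the summed Esr1 and Esr2 level in AVP-flox and 99.1% to 100% in AVP-flox;Cre. Pgr, the progesterone receptor gene and a textbook estrogen target in the uterus and breast, was at 0.28, 0.50, 0.61 and 0.41 TPM in AVP-flox and 1.33, 0.70, 1.29 and 0.94 TPM in AVP-flox;Cre. All AVP-flox;Cre values of Pgr were above all AVP-flox values, a 2.37-fold ratio of means, at levels near the filter. Its exact permutation test reached the smallest possible p = 0.0286, while limma run with no filter gave an adjusted p = 0.256. Nr3c1, the glucocorticoid receptor gene, averaged 46.3 ± 2.2 TPM in AVP-flox and 42.0 ± 2.9 TPM in AVP-flox;Cre, short of the threshold (95% interval of the log2 fold change -0.31 to 0.03, adjusted p = 0.220). The summed level of all 44 genes was 737 ± 21 TPM in AVP-flox and 865 ± 79 TPM in AVP-flox;Cre, and without Esr1 it was 736 ± 21 and 731 ± 32 TPM.

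**Figure D1:**
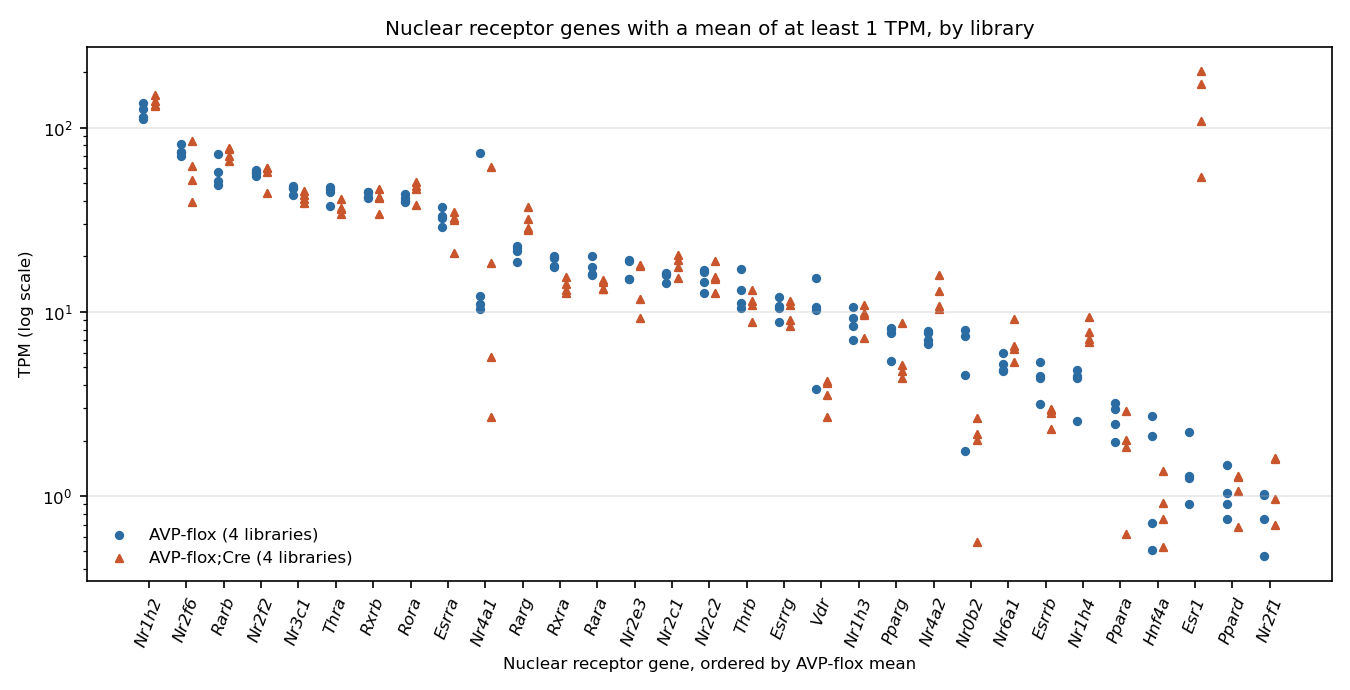
TPM on a log axis of the 31 nuclear receptor genes whose mean reached 1 TPM, ordered by their AVP-flox mean, with 1 point per library (circles AVP-flox, triangles AVP-flox;Cre, 4 each). Nr1h2 had the highest AVP-flox mean, at 122 TPM, and Esr1 is the gene whose groups lie farthest apart, at 0.91 to 2.23 and 54.2 to 202 TPM.

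Of the 44 genes, 31 reached a mean of 1 TPM and were tested, and 6 passed, which is 19.4% against the 27.3% of all tested genes. Esr1, Rarg, Nr1h4 and Nr4a2 were higher (12.9% against 13.1%), and Rxra and Vdr were lower (6.45% against 14.2%). The median log2 fold change of the 31 was -0.08 against -0.01 for all tested genes, and the median absolute change was 0.29 for both. Of the 6, Esr1 and Vdr alone differed by 2-fold or more. Libraries of the groups were fully apart for 7 of the 31 genes (22.6%), against 29.5% of all tested genes. These 7 were Esr1, Rarg, Nr1h4, Nr4a2, Rxra, Esrrb and Rara. The 13 genes below the filter, which include Esr2 and Pgr, reached at most 1.33 TPM in any library. With no filter, where 5.04% of 67580 genes passed, the lowest adjusted p among the 13 was 0.256, for Pgr. The other 11 were Rxrg, the pregnane and androstane receptor genes Nr1i2 and Nr1i3, Nr1h5, Rorb, Nr2e1, Nr4a3, Nr5a1, Nr5a2, Hnf4g and Nr0b1. Of the 13, 6 were listed at 0 in at least 1 library.

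**Figure D2:**
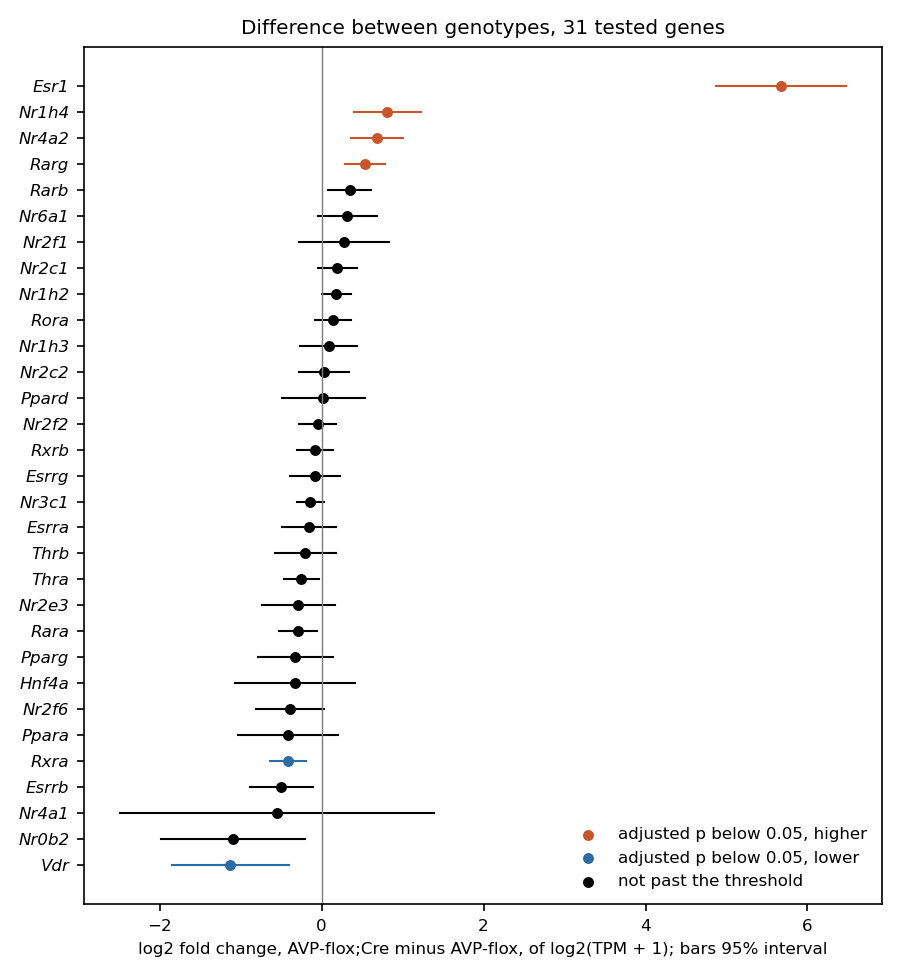
Log2 fold change (AVP-flox;Cre minus AVP-flox, on the log2(TPM + 1) scale) of the 31 tested genes as points, with bars for the 95% interval from limma. Orange marks the 4 genes that passed and were higher, blue the 2 that passed and were lower and black the 25 that did not pass, with Esr1 at 5.67 and all others between -1.13 and 0.81.

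Among the retinoic acid receptor genes, Rarg rose. These receptors bind all-trans retinoic acid, the acid form of vitamin A, and act as partners of RXR. Rarg went from 22.9, 21.5, 18.6 and 22.2 TPM in AVP-flox to 28.6, 27.9, 31.8 and 37.3 TPM in AVP-flox;Cre. These groups do not overlap, and the log2 fold change was 0.53 (SE 0.11, adjusted p = 0.00659). Rarb, the third most abundant of the 44 genes in AVP-flox by mean, stood at 71.9, 57.5, 48.9 and 51.5 TPM there and at 70.1, 77.0, 65.9 and 77.6 TPM in AVP-flox;Cre. AVP-flox 1 lay within the AVP-flox;Cre range. The difference of 0.35 (SE 0.12) did not pass (adjusted p = 0.0557), and without AVP-flox 1 it was 0.46 (adjusted p = 0.00825). Over single libraries left out it ranged from 0.27 to 0.46. Rarb passed in 6 of 21 alternatives, and its adjusted p reached 0.350 in others. Rara was at 20.2, 17.4, 15.8 and 16.1 TPM in AVP-flox and at 13.2, 14.95, 13.3 and 14.5 TPM in AVP-flox;Cre. Its groups do not overlap, but the log2 fold change of -0.29 (SE 0.10) was not past the threshold (adjusted p = 0.0686). As a share of the summed Rara, Rarb and Rarg level, Rara made up 17.5% to 18.9% in the AVP-flox libraries and 11.2% to 12.5% in the AVP-flox;Cre libraries. The shares of Rarg (19.9% to 24.7% and 23.3% to 28.8%) and Rarb (57.4% to 62.6% and 59.4% to 64.3%) overlapped between the groups, and differences in shares were not tested. The sum was 96.1 ± 13.7 and 118.02 ± 8.55 TPM.

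Rarb is itself a well known retinoic acid target, through a direct repeat close to its start, and its RefSeq window (chr14:16575427-16575726, GRCm38.p6, minus strand) is shown for that reason. Capitals mark the match to a direct repeat of GTTCAC spaced by 5 bases, which begins 52 bases before the annotated start. Of 32851 windows of this length in the table, 2 (0.00609%) hold those exact letters on either strand, that of Rarb included. The search used 1 fixed spelling of the half-site, which is the spelling in Rarb. The share therefore does not tell how rare retinoic acid direct repeats are. A match is a description of letters and says nothing of binding in these samples. In GENCODE M21, exons of the opposite-strand genes Top2b and Gm48162 overlap those of Rarb by 2020 bases, summed over the 2 genes. Rarb has 5265 exonic bases, and no strand-specific counting is stated. Top2b stood at 28.2 ± 1.9 and 30.1 ± 2.9 TPM.
Rarb: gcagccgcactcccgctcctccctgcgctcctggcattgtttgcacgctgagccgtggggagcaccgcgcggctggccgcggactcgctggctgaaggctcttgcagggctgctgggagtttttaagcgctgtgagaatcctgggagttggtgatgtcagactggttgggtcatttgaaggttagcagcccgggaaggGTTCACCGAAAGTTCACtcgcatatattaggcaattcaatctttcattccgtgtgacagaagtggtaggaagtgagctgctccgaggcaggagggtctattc

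Rxra, which encodes one of the shared RXR partners, fell. It was at 17.7, 19.6, 17.5 and 20.1 TPM in AVP-flox and at 15.4, 12.7, 14.1 and 13.1 TPM in AVP-flox;Cre, with no overlap. The log2 fold change was -0.41 (SE 0.10, adjusted p = 0.0127). Rxrb, the more abundant partner gene, averaged 43.1 ± 1.8 and 41.0 ± 5.1 TPM, without passing (95% interval -0.30 to 0.14, adjusted p = 0.593). Rxrb made up 67.0% to 71.6% of the summed RXR level in AVP-flox and 72.2% to 76.7% in AVP-flox;Cre, and Rxrg at most 0.34% in any library. The first 300 nt of the Rxra transcript hold 74.7% GC. Over genes with more than 80% GC in those bases and a level of 10 TPM or more in AVP-flox, the median log2 deviation from the AVP-flox mean was -0.14, -0.55, -0.40 and -0.64 in AVP-flox;Cre 1 to 4. With each library corrected for its trend with that GC content, the log2 fold change of Rxra was -0.27 (adjusted p = 0.0438). Without AVP-flox 2, AVP-flox;Cre 2 and AVP-flox;Cre 4 it was -0.30 and did not pass (adjusted p = 0.168).

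**Figure D3:**
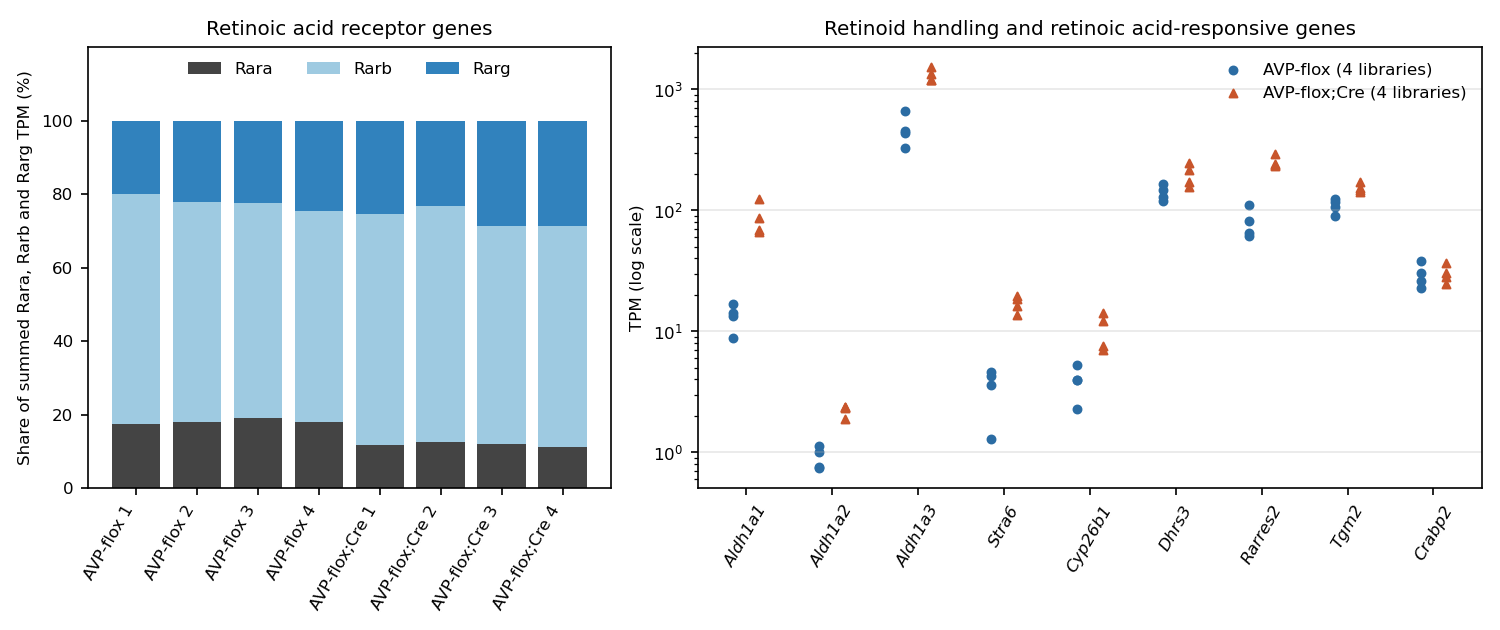
Left, share (%) of Rara, Rarb and Rarg in their summed TPM in each of the 8 libraries, as stacked bars. Right, TPM on a log axis of 9 retinoid genes with 1 point per library (circles AVP-flox, triangles AVP-flox;Cre, 4 each). The Rara share is 17.5% to 18.9% in AVP-flox and 11.2% to 12.5% in AVP-flox;Cre, and of the 9 genes Crabp2 and Dhrs3 have groups that overlap.

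In the list of 32 ligand enzymes and carriers for all receptor classes, 24 were tested, 7 rose, 2 fell and 15 did not pass (37.5% called against 27.3% of all genes, median log2 fold change 0.06). Of the 7 that rose, 6 handle retinoids, Aldh1a2 and Dhrs3 among them. In a tally made after the values were seen, the list held 11 retinoid genes, of which 10 were tested, 6 rose and 4 did not pass (Rdh10, Rdh11, Crabp1 and Crabp2). Of all tested genes 13.1% rose. Aldh1a1, which oxidises retinal to retinoic acid, stood at 8.73 to 16.8 TPM in AVP-flox and 66.6 to 123 TPM in AVP-flox;Cre, a 6.49-fold ratio (adjusted p = 6.04e-05). Aldh1a3, of the same enzyme family and the most abundant of the list in AVP-flox;Cre, rose from 469 ± 140 to 1309 ± 160 TPM (adjusted p = 0.000340). Cyp26b1, which breaks down retinoic acid, rose 2.66-fold (adjusted p = 0.00795). Hsd17b12, of the steroid dehydrogenase family, fell by 0.39 on the log2 scale (adjusted p = 0.00850). Of 12 retinoic acid-responsive genes that are not receptors, 9 were tested, 7 rose and 2 did not pass (77.8% called against 27.3% of all genes, median 0.49). Beside Cyp26b1, Dhrs3 and the coregulator gene Nrip1, these included Stra6, a receptor for retinol transport, at 1.29 to 4.57 and 13.7 to 19.5 TPM (adjusted p = 0.000471), Rarres2, which encodes chemerin, up 3.14-fold (adjusted p = 0.000141), and Tgm2, a transglutaminase, up 1.41-fold (adjusted p = 0.00643). Cyp26b1 and Dhrs3 are among the genes that stand in both lists, so the counts are not separate. Over the same libraries 7 of 9 tested papillary surface and urothelium markers rose and 1 fell (88.9% called against 27.3% of all genes). Of 11 tested fibroblast and pericyte markers 5 rose (45.5% called). The sums of both lists are given at the start, and Krt20 and Lum were listed at 0 in at least 1 library. The part of such cells in these rises was not tested.

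Among thyroid hormone and vitamin D receptors, Vdr fell. Vdr, which mediates the calcium-conserving action of vitamin D in the kidney, was at 10.6, 10.2, 15.2 and 3.83 TPM in AVP-flox 1 to 4 and at 2.67, 4.21, 3.54 and 4.10 TPM in AVP-flox;Cre 1 to 4. AVP-flox 4 lay within the AVP-flox;Cre range, and the other 3 AVP-flox libraries were above it. The log2 fold change was -1.13 (SE 0.32, adjusted p = 0.0273), and the exact permutation test gave p = 0.0857. Without AVP-flox 1, 2 or 3 or AVP-flox;Cre 1 or 3, taken 1 at a time, its adjusted p lay between 0.0585 and 0.0727, and without AVP-flox 4 the fold change was -1.48. Of 11 vitamin D-responsive genes, 8 were tested, 1 rose and 7 did not pass (12.5% called against 27.3% of all genes). The 1 that rose was Spp1, which encodes osteopontin, from 3873 ± 427 to 5778 ± 399 TPM (adjusted p = 0.00163). Thra and Thrb, the thyroid hormone receptor genes, did not pass. Thra was at 44.2 ± 4.6 and 36.9 ± 2.8 TPM (log2 fold change -0.25, adjusted p = 0.0793) and passed without AVP-flox 1 (-0.33, adjusted p = 0.0261). That was 1 of 21 alternatives, and adjusted p of Thra reached 0.461 in others. Thra shares 263 of 4614 exonic bases with an opposite-strand gene. Of 8 thyroid hormone-responsive genes, 7 were tested, 2 fell and 5 did not pass (28.6% called, near the 27.3% of all genes). Those that fell were malic enzyme gene Me1, at 157 ± 33 and 39.8 ± 14.1 TPM (adjusted p = 0.000239), and Hr, at -0.82 (adjusted p = 0.0310).

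Nr1h4 rose among the receptors of bile acids, oxysterols, fatty acids and foreign compounds. It encodes FXR, the bile acid receptor, which in mice is also needed for full urine concentration. It was at 4.83, 2.57, 4.50 and 4.37 TPM in AVP-flox and 6.88, 7.77, 7.12 and 9.43 TPM in AVP-flox;Cre, with no overlap, a 1.92-fold ratio and a log2 fold change of 0.81 (SE 0.18, adjusted p = 0.00954). Nr0b2, which encodes the DNA-binding-domain-less receptor SHP and is induced by FXR in liver, did not pass. It stood at 4.52, 1.75, 7.39 and 7.97 TPM in AVP-flox and 2.18, 0.56, 2.02 and 2.65 TPM in AVP-flox;Cre. AVP-flox 2 lay inside the AVP-flox;Cre range. The log2 fold change of Nr0b2 was -1.10 (SE 0.40, adjusted p = 0.0675), and -1.46 without AVP-flox 2 (adjusted p = 0.0124). Nr0b2 passed in 5 of 20 alternatives, and its adjusted p reached 0.186 in others. The thick limb marker Slc12a1 was at 98.3 TPM in AVP-flox 2, 577 to 682 TPM in the other AVP-flox libraries and from 97.3 to 190 TPM over the AVP-flox;Cre libraries. Slc12a1 itself did not pass (limma adjusted p = 0.0876). Of the 10 thick limb and distal tubule markers 9 were tested, 3 rose (Cldn10, Cldn16 and Sostdc1), 0 fell and 6 did not pass (33.3% called against 27.3% of all genes). The part of such cells in the Nr0b2 values was not tested.

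Nr1h2, the gene of the oxysterol receptor LXR beta, had the highest mean of the 44 genes in both groups, at 122 ± 11 and 138 ± 9 TPM, and did not pass (log2 fold change 0.18, adjusted p = 0.127). Its relative Nr1h3 was at 8.81 ± 1.499 and 9.41 ± 1.54 TPM, so that Nr1h2 made up 92.3% to 95.1% of the summed level in every library. Of 13 LXR-responsive genes other than Nr1h3, 12 were tested, 3 rose, 2 fell and 7 did not pass (41.7% called against 27.3% of all genes, median -0.04). Pltp, a phospholipid transfer protein gene, rose 2.33-fold, Apoe rose 1.77-fold and Mylip rose 1.36-fold (adjusted p = 0.000249, 0.000386 and 0.00216). Abcg1, a sterol exporter gene and itself a standard LXR target, fell by 0.75 on the log2 scale (adjusted p = 0.00231). The peroxisome proliferator-activated receptor genes did not pass. Pparg, through which glitazone drugs cause salt and water retention in the collecting duct, was at 7.32 ± 1.31 and 5.78 ± 2.01 TPM, Ppara at 2.65 ± 0.55 and 1.85 ± 0.94 TPM, and Ppard at 1.04 ± 0.31 and 1.07 ± 0.28 TPM. Of 18 PPAR-responsive genes, 16 were tested, 0 rose, 4 fell and 12 did not pass (25.0% called, near the 27.3% of all genes, median -0.28). Among those that fell were Cpt1a (-0.54), Angptl4 (-0.63) and Cpt1b (-0.99), with limma adjusted p = 0.00675, 0.0160 and 0.0494. The call of Cpt1b ended without any 1 library other than AVP-flox 2, with adjusted p between 0.0752 and 0.128. Cpt1b stood at 32.6, 10.9, 39.8 and 33.2 TPM in AVP-flox 1 to 4, whereas the AVP-flox;Cre libraries ranged from 11.1 to 13.99 TPM. The thick limb marker Slc12a1 was likewise low in AVP-flox 2, at 682, 98.3, 577 and 624 TPM in AVP-flox, with AVP-flox;Cre ranging from 97.3 to 190 TPM. Slc12a1 did not pass, and of 9 tested thick limb and distal tubule markers 3 rose and 0 fell. The part of such cells in the Cpt1b values was not tested.

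Nr4a2 rose in the NR4A group, orphan receptors that are switched on within minutes by cAMP and other signals. Nr4a2 was at 7.89, 6.65, 7.03 and 7.63 TPM in AVP-flox and at 10.4, 10.8, 15.8 and 13.0 TPM in AVP-flox;Cre, with no overlap (log2 fold change 0.69, SE 0.14, adjusted p = 0.00655). Nr4a1 behaved differently from library to library. It was at 10.3, 11.0, 12.2 and 73.2 TPM in AVP-flox and at 2.68, 18.4, 60.8 and 5.65 TPM in AVP-flox;Cre. AVP-flox 4 and AVP-flox;Cre 3 were high, and the groups overlap (log2 fold change -0.55, 95% interval -2.49 to 1.39, adjusted p = 0.687). Among 12 immediate early genes that often accompany Nr4a1, 10 were tested, 0 rose, 1 fell and 9 did not pass (10% called against 27.3% of all genes). The 1 that fell was Klf2 (-1.04, adjusted p = 0.0223), whose call ended without any 1 of AVP-flox 2, AVP-flox 3 or AVP-flox;Cre 4 (adjusted p = 0.0584 to 0.0616). Egr1, named after its values were seen, was at 102 TPM in AVP-flox 4 and 96.5 TPM in AVP-flox;Cre 3, where Nr4a1 was high, and at 180 TPM in AVP-flox;Cre 2, where Nr4a1 was at 18.4 TPM. It was at 3.96 to 7.48 TPM in the other 5 libraries. Nr4a2 did not share this pattern, with its AVP-flox;Cre values between 10.4 and 15.8 TPM.

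The windows around the starts of Nr4a1 (chr15:101266596-101266895, plus strand) and Nr4a2 (chr2:57123954-57124253, minus strand), both GRCm38.p6, are shown because the genes differed in pattern while both are classical cAMP targets. Capitals mark CGTCA, the core of the cAMP response element, on either strand. Each window holds 4 matches, and 1.03% of all windows hold at least 3. The full palindrome TGACGTCA is in neither, while 1.79% of all windows hold it. GC content was 72.3% in the Nr4a1 window and 81.7% in the Nr4a2 window, and such motif counts share that base composition.
Nr4a1: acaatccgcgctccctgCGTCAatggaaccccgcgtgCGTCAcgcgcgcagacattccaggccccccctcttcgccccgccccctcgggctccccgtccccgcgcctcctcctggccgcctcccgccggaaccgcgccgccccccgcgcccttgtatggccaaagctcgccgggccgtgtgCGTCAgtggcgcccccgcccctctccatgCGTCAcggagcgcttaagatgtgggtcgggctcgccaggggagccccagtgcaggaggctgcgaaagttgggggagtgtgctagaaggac
Nr4a2: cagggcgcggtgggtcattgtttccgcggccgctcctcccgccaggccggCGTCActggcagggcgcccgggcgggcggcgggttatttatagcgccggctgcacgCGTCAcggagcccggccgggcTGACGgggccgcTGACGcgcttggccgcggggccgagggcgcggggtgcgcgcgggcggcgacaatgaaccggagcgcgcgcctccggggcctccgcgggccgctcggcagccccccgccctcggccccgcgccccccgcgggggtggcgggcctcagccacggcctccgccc

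**Figure D4:**
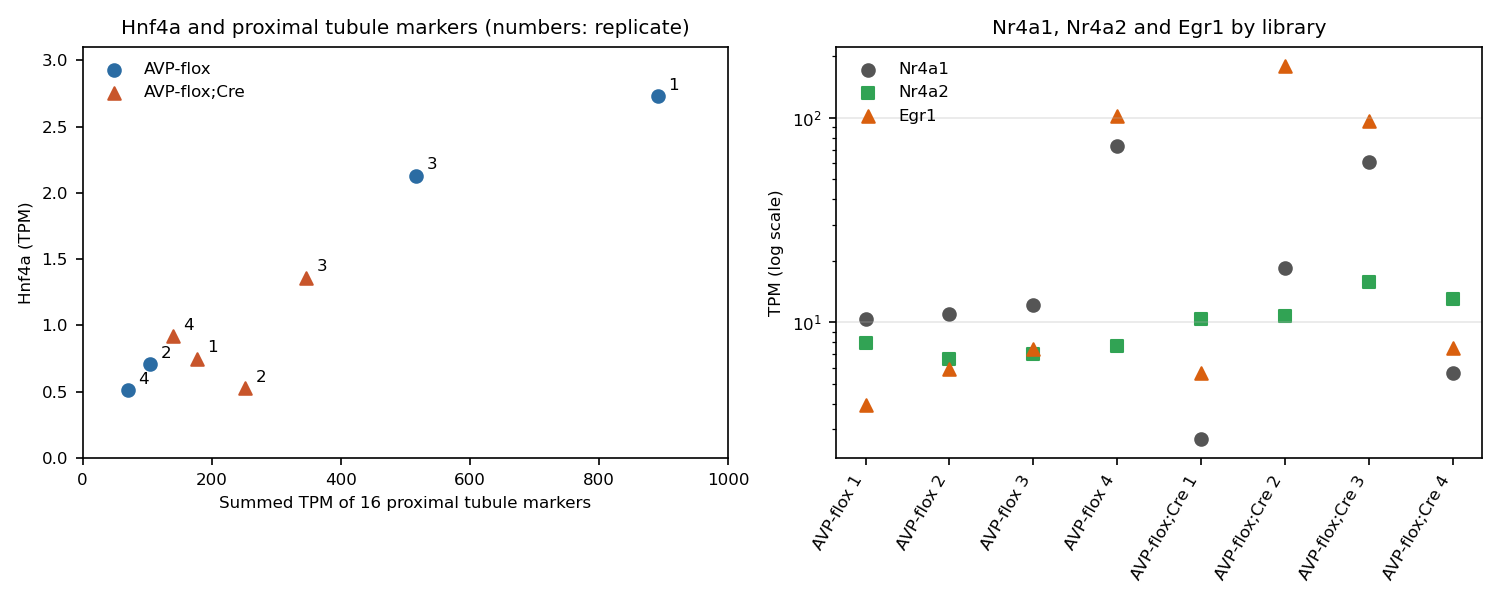
Left, Hnf4a (TPM) against the summed TPM of 16 proximal tubule markers in the 8 libraries, numbered by replicate (circles AVP-flox, triangles AVP-flox;Cre). Right, TPM on a log axis of Nr4a1, Nr4a2 and Egr1 in each library, where AVP-flox 4 and AVP-flox;Cre 3 are high for both Nr4a1 and Egr1, and AVP-flox;Cre 2 is high for Egr1.

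The estrogen-related receptors, orphans that control mitochondrial genes, and the NR2 orphans held no gene past the threshold. Esrrb did not reach it although its groups do not overlap, at 5.33, 3.16, 4.36 and 4.49 TPM in AVP-flox and 2.81, 2.32, 2.96 and 2.92 TPM in AVP-flox;Cre (log2 fold change -0.50, SE 0.17, adjusted p = 0.0590, and 0.0311 without AVP-flox 2). Esrrb passed in 4 of 20 alternatives, and its adjusted p reached 0.155 in others. Esrra stood at 32.9 ± 3.2 and 29.9 ± 6.2 TPM and Esrrg at 10.5 ± 1.3 and 9.93 ± 1.47 TPM. Nr2f2, which encodes COUP-TFII, a factor of veins and stroma, was at 57.0 ± 1.8 and 55.5 ± 7.7 TPM (95% interval -0.28 to 0.18, adjusted p = 0.765). Nr2f6 was the second most abundant of the 44 genes in AVP-flox. It stood at 81.9, 70.4, 74.2 and 73.5 TPM there and at 84.2, 51.7, 61.6 and 39.3 TPM in AVP-flox;Cre 1 to 4. AVP-flox;Cre 1 was the highest of all 8 libraries and the other 3 AVP-flox;Cre libraries were below every AVP-flox library. The change was -0.39 on the log2 scale (SE 0.19, adjusted p = 0.160), and -0.57 without AVP-flox;Cre 1 (adjusted p = 0.0172). It was -0.21 without AVP-flox;Cre 4 (adjusted p = 0.335), -0.17 with the GC trend removed and -0.085 (adjusted p = 0.727) without the trio of AVP-flox 2, AVP-flox;Cre 2 and AVP-flox;Cre 4. The first 300 nt of Nr2f6 hold 78.7% GC, and 1622 of its 2983 exonic bases are also exonic in opposite-strand Ocel1, which was at 22.4 ± 2.8 and 18.3 ± 1.5 TPM. The circadian receptor gene Rora averaged 41.2 ± 1.9 and 45.9 ± 5.7 TPM, without passing (adjusted p = 0.318). Nr2c1, Nr2c2, Nr2e3, Nr2f1 and Nr6a1 also did not pass, with adjusted p between 0.181 and 0.902.

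Hnf4a, a factor of proximal tubule and liver, was low and uneven. It stood at 2.73, 0.71, 2.13 and 0.51 TPM in AVP-flox 1 to 4 and at 0.75, 0.53, 1.36 and 0.92 TPM in AVP-flox;Cre 1 to 4. AVP-flox 1 and 3 were the highest, and the groups overlap (adjusted p = 0.511). The 16 proximal tubule markers summed to 891, 105, 517 and 70.6 TPM in AVP-flox 1 to 4 and to 177, 252, 346 and 140 TPM in AVP-flox;Cre 1 to 4, so that the same 2 AVP-flox libraries were highest in both. All 16 markers were above 0 in every library, and of 14 tested 0 passed the test. Their part in the Hnf4a values was not tested.

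The genes that work with the receptors showed changes in both directions. Of 42 coregulator and chaperone genes, all tested, 7 rose, 9 fell and 26 did not pass (38.1% called against 27.3% of all genes, median -0.10). With the filter at 5 TPM, 39.4% of all genes passed, so the 38.1% is not read as an excess. Among 19 coactivator genes 4 rose and 2 fell (31.6% called against 27.3% of all genes). Ddx5, an RNA helicase that also binds estrogen receptor alpha, rose from 185 ± 6 to 289 ± 17 TPM (adjusted p = 0.000117) and Ccar1 rose 1.41-fold (adjusted p = 0.0103), while the arginine methyltransferase gene Carm1 fell by 0.73 on the log2 scale (adjusted p = 0.0126). The groups overlap for Carm1, with AVP-flox 1 at 18.1 TPM and AVP-flox;Cre 1 at 19.4 TPM. Its first 300 nt hold 79.7% GC, and its change was -0.49 with the GC trend removed and -0.46 (adjusted p = 0.199) without the trio of AVP-flox 2, AVP-flox;Cre 2 and AVP-flox;Cre 4. Ncoa7 rose 1.43-fold (adjusted p = 0.0267), a call that ended without AVP-flox 1 or 4 or AVP-flox;Cre 3 or 4 (adjusted p = 0.0529 to 0.0678). Among 15 corepressor genes 3 rose and 3 fell (40% called against 27.3% of all genes). Ncor1, a scaffold of the corepressor complex with histone deacetylase 3, was at 114 ± 4 TPM in AVP-flox and at 94.3, 46.7, 55.6 and 36.4 TPM in AVP-flox;Cre 1 to 4 (-1.04, adjusted p = 0.00858). Its change was -1.02 with the GC trend removed and -0.66 (adjusted p = 0.0821) without the trio of AVP-flox 2, AVP-flox;Cre 2 and AVP-flox;Cre 4. Tbl1xr1, of the same complex, fell by 0.85 (adjusted p = 0.00468), and the deacetylase gene Hdac1 rose 1.53-fold (adjusted p = 0.000184). Hr fell by 0.82 (adjusted p = 0.0310). Of 8 chaperones that hold unliganded steroid receptors, 4 fell and 4 did not pass (50% called against 27.3% of all genes). Those that fell were Hsp90aa1, from 279 ± 41 to 158 ± 22 TPM (adjusted p = 0.000950), Hsp90ab1 (-0.37), Stip1 (-0.29) and Ptges3 (-0.21), the last 3 with adjusted p = 0.0340, 0.0208 and 0.0268. With the GC trend removed Ptges3 was at -0.08 (adjusted p = 0.414). The calls of Hr, Hsp90ab1, Stip1 and Ptges3 ended when single libraries were left out, and the count of called coregulator genes was 9, 10 and 8 without AVP-flox 1, 2 and 3 and 7 without AVP-flox;Cre 3.

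Of 17 estrogen-responsive genes other than Esr1 and Pgr, 14 were tested, 5 rose, 1 fell and 8 did not pass (42.9% called against 27.3% of all genes, median 0.16). Igfbp4, an insulin-like growth factor binding protein gene, stood at 8.86 ± 1.36 and 34.9 ± 7.8 TPM (adjusted p = 9.01e-05) and Lcn2, which is also a marker of tubular injury, at 54.5 ± 14.7 and 254 ± 99 TPM (adjusted p = 0.000372). Stc2 rose 1.99-fold (adjusted p = 0.0177), a call that ended without AVP-flox 3 (0.0532) or AVP-flox;Cre 1 (0.0520). Cxcl12, a chemokine gene induced by estrogen in breast cancer cells, fell by 0.79 on the log2 scale (adjusted p = 0.00223). Of 14 glucocorticoid-responsive genes, all tested, 1 rose, 1 fell and 12 did not pass (14.3% called against 27.3% of all genes, median 0.10). The metallothionein gene Mt2, which metals and glucocorticoids both induce, was at 71.6 ± 24.4 and 7.82 ± 1.84 TPM (adjusted p = 8.09e-05), and Sult1a1, a sulfotransferase gene, rose 2.63-fold (adjusted p = 0.000232). Over all receptor-responsive lists, counting each gene once and leaving out the 44, 26 of 77 tested genes passed (33.8% against 27.3% of all genes), 16 higher and 10 lower. With the filter at 5 TPM, 39.4% of all genes passed, so the 33.8% is not read as an excess.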

How the data were processed

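Per the labels' protocols, cDNA for each of the 8 libraries came from 1 ng of RNA (SMART-Seq HT, 11 PCR cycles), and Nextera XT libraries were read as 50 bp pairs. The submitters' processing notes name STAR and RSEM but no version. Their genome build is not given in the sources used here. The deposited table holds TPM values made by the authors, scaled to the same total in each library, and keeps no depth, so no counting interval is given. WT columns were taken as AVP-flox and KO columns as AVP-flox;Cre, by replicate number.

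Identifiers that share a symbol were summed, which turned 78298 identifiers into 77981 genes. Using limma 3.58.1 in R 4.3.3, with statmod 1.5.0 installed, models were fitted to log2(TPM + 1) for genes whose mean reached 1 TPM, with a mean-variance trend and genotype as the only term. All tests are two-sided, and limma p-values were adjusted by Benjamini-Hochberg over 19043 genes. An exact permutation test, over all 70 assignments of the libraries, was added for single receptor genes. The limma procedure was also run on simulated data with independent noise and known shifts. Those data hold no GC trend and no cell mixture, so that run does not bear on either. Folds are ratios of mean TPM, and log2 fold changes on this scale understate changes of low genes. Promoter windows are from RefSeq (GRCm38.p6), which held 40 of the 44 genes in 61 windows. Opposite-strand overlap and GC content are from GENCODE M21, and 87.4% of tested genes had a GC value.

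The 44 genes and all lists were chosen with earlier results of these data known. The text gives every library's value for each receptor gene past the threshold or with groups that do not overlap, and up to 4 changed genes of each list (5 for ligand enzymes and carriers) with the smallest adjusted p. Some genes that this rule names are not reported here. Aldh1a2, Dhrs3, Nrip1 and Egr1 were named after their values were seen. The alternatives were pseudocounts of 0.1 and 5, no low-value filter or one at 5 TPM, a replicate block, quantile or median-of-ratios scaling, no trend, robust moderation, sample weights, the Xist and Y-linked pattern as a covariate, each library left out, AVP-flox 2 left out with AVP-flox;Cre 2 and 4, and, chosen after seeing the data, removal of each library's trend with 5' GC content.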

Additional observations from a re-analysis of the deposited data

Results flagged for a closer look

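A library was marked when its gap to the nearest of its group was, relative to the group's range, above Dixon's 95% critical value. This was checked in 136 groups of 4, of which chance marks about 1 in 20, and 5 were marked. Nr4a1 was at 73.2 TPM in AVP-flox 4 against 10.3 to 12.2 TPM in the other AVP-flox libraries. AVP-flox;Cre 2 held the other 4, with Nr2f2 at 44.1 TPM against 57.7 to 60.3 TPM, Hsp90aa1 at 189.9 TPM against 145 to 152 TPM, Lcn2 at 402 TPM against 194 to 218 TPM and Rarres2 at 292 TPM against 234 to 242 TPM. AVP-flox;Cre 2 also listed 33576 genes above 0 TPM, while the other libraries listed 50951 to 58232.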

How the results depend on the processing

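The rise of Esr1 held in all 21 alternatives, with log2 fold changes from 4.29 to 6.37 and adjusted p up to 0.00322. Rarg, Nr1h4 and Nr4a2 passed in all but 1 alternative, the removal of AVP-flox 2 with AVP-flox;Cre 2 and 4. With those 3 libraries left out 2560 genes passed in all, and 3 coregulator and 4 ligand enzyme and carrier genes passed. The 1 receptor gene that was higher was Esr1. The 1 that was lower was Nr0b2 (limma adjusted p = 0.0246), which did not pass in the main fit. Rxra (-0.30, adjusted p = 0.168) and Vdr (-1.25, adjusted p = 0.141) no longer passed. With no filter 3409 genes passed, 0 receptor genes were lower in limma (adjusted p = 0.0521 for Rxra and 0.0770 for Vdr), and 7 coregulator genes passed. The count of lower receptor genes was 4 with quantile scaling, and that of coregulator genes 10 with no trend. Leaving out single libraries gave 4006 to 4767 genes in all, 4 to 5 higher and 1 to 3 lower receptor genes, 7 to 14 coregulator genes, 8 to 9 ligand genes and 20 to 29 responsive genes.

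Receptor genes that did not pass changed sign in some alternatives. Rxrb was at 0.048 without those 3 libraries, 0.053 with the GC trend removed and between -0.14 and 0.0056 without single libraries, the highest without AVP-flox;Cre 4. Nr2f2 was at 0.061 without those 3 libraries and between -0.092 and 0.056 without single libraries, the highest without AVP-flox;Cre 2. Without single libraries Esrra lay between -0.23 and 0.0035, the highest without AVP-flox;Cre 2, and Nr4a1 between -1.29 and 0.10, above 0 without AVP-flox 4 or AVP-flox;Cre 1. The causes were not tested. Over single genes and alternatives, 1069 values were counted as unchanged, 95 were no longer past the threshold, 17 newly passed and 8 changed sign. For tested genes unchanged means the same direction and side of the threshold. For Esr2 and Pgr, which were not tested, it means a shift below 1 SD, and 4 of their values moved farther.

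Same-numbered libraries of the groups did not deviate together (correlations of 0.00 to 0.09), and the main fit does not use the number as a pairing. Such correlations cannot exclude that same-numbered samples were handled together. With the replicate block 4 receptor genes were higher and 3 lower, Nr0b2 being the added call (adjusted p = 0.0117). Depth is unknown and limits the genes near 1 TPM, Esr2 and Pgr among them.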
